A study of Mus musculus with 12 samples.

Results

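The response to poly(I:C) was examined within Fmr1 knockout mice: 4 libraries from knockout mice given poly(I:C) were set against 4 from knockout mice given saline, chosen by their group labels from the 12 libraries of the study. Gene expression had been measured by bulk RNA sequencing of the cerebellum. The series title gives the region as crus 1, which lies in the hemisphere. Both groups carried the Fmr1 knockout, and the treated group received an intraperitoneal injection of poly(I:C). The sample titles call the saline knockout group sham, while its treatment label is saline. The other 4 libraries came from FVB mice given saline, FVB being the background strain that the series names. They shared the fit and are given below as a reference level. None of the 12 libraries came from FVB mice given poly(I:C), so whether the response depends on genotype could not be tested. The knockout allele, the dose, the time between injection and sampling, and the age and sex of the mice could not be taken from the labels.

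Poly(I:C) imitates the double-stranded RNA that many viruses leave in cells. It is sensed by Toll-like receptor 3 in endosomes and by the helicases RIG-I and MDA5 in the cytosol, and sensing leads to the release of type I interferons. Interferons bound to their receptor activate transcription factors that include STAT2 and IRF9, which act on interferon-stimulated response elements (ISRE) in the promoters of antiviral genes, while gamma-activated sites (GAS) are a further promoter element of interferon signalling. In the brain, the cells that line blood vessels meet interferons and cytokines of the blood first, and microglia, astrocytes and neurons carry interferon receptors as well.

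The 8 knockout libraries held 38723699 to 56390207 counts and 25992 to 27565 detected genes, and the FVB libraries 35155420 to 48717119 counts. No label ties a sample to an animal of its own, and p-values therefore cover the spread among these samples, which may be technical. Fmr1 was at 33.9, 34.6, 36.0 and 33.9 counts scaled to library size (CPM) in treated knockout 1 to 4 and at 28.7, 33.6, 27.9 and 36.7 CPM in saline knockout 1 to 4, against 95 ± 9.41 CPM in FVB (SD, n = 4). All 8 knockout libraries thus carried the reduced level, and the knockout groups did not differ beyond their spread (log2 fold change 0.12, SE 0.0875, quasi-likelihood test of edgeR, Benjamini-Hochberg adjusted p = 0.557). Markers of cerebellar granule and Purkinje cells were abundant in all libraries, at a mean of 8.43 to 8.60 and 7.76 to 8.11 log2 CPM over their lists in the knockout. Saline knockout 2 and treated knockout 2 and 3 stood apart by Ttr, the transthyretin gene of the choroid plexus (12.02, 11.08 and 11.36 log2 CPM, against 0.75 to 4.64 in the other 5 knockout libraries). Results are therefore also given without these 3, called the Ttr-high libraries below, which leaves 2 treated and 3 saline libraries, a choice made with those levels known.

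The response was broad, and it was mostly made of rises from a low level. Of 19166 tested genes 550 changed at an adjusted p under 0.05 (2.87%), 347 rose (1.81%) and 203 fell (1.06%). A total of 220 genes rose and 30 fell by at least 2-fold, and 126 rose and 5 fell by at least 4-fold. The median log2 fold change was 1.53 among the raised genes and −0.50 among the lowered genes, against −0.0017 over all tested genes. All 4 treated libraries lay above all 4 saline libraries for 335 of the 347 raised genes and for 4.93% of all tested genes, and below them for 193 of the 203 lowered genes and for 4.82% of all tested genes. The raised genes averaged 3.27 to 3.57 log2 CPM in the treated libraries and 1.54 to 1.74 in the saline knockout libraries, where FVB held 1.5 to 1.69. The lowered genes averaged 3.84 to 4.07 log2 CPM in the treated libraries, 4.51 to 4.61 in the saline knockout libraries, with FVB at 4.41 to 4.55. These means describe genes chosen by the same contrast and carry no test. Among called genes the balance between rises and falls turned over with expression level. The median fall was −2.07 in the lowest class, with 5 falls, and −0.31 in the most abundant class. Small changes are harder to call at low counts, and the part of this in the balance was not tested. In the third of 6 equal classes by mean level 108 genes rose and 46 fell, whereas in the fifth class 24 rose and 49 fell, and in the most abundant class 25 rose and 40 fell.

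**Figure D1:**
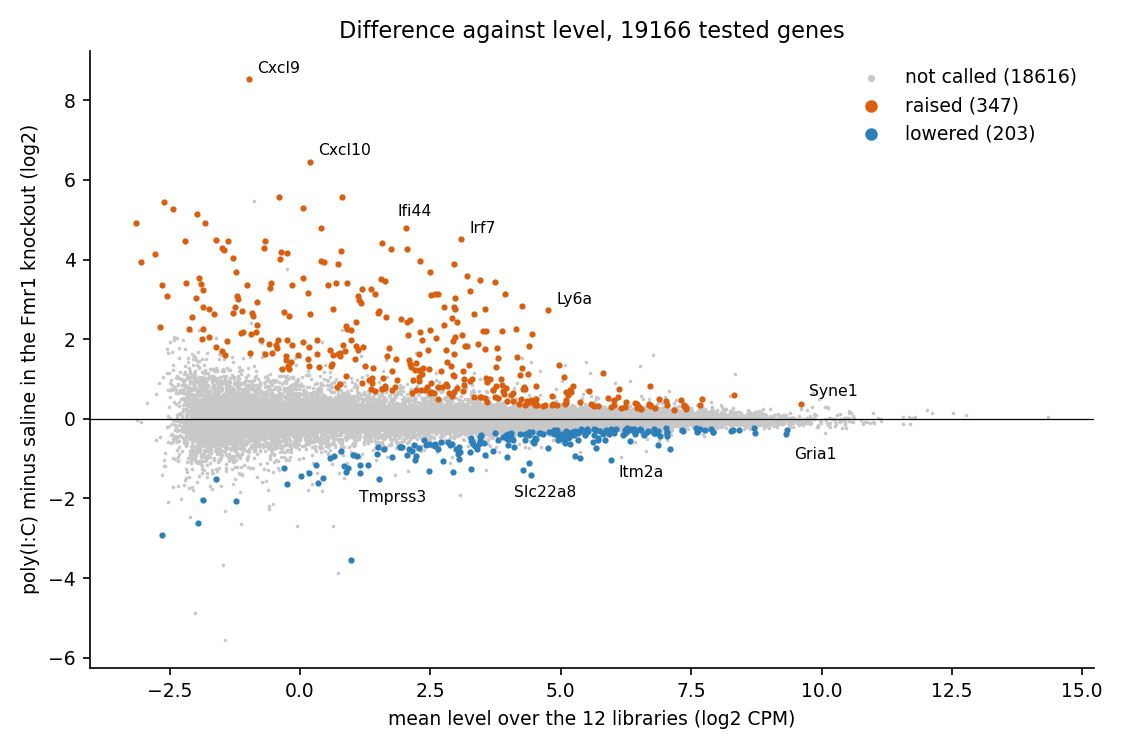
Log2 fold change of treated against saline knockout (vertical axis) against the mean level over the 12 libraries in log2 CPM (horizontal axis), 1 point per tested gene. The 347 raised genes (orange) reach far above 0 at low and middle levels. The 203 lowered genes (blue) mostly lie closer to 0, with 30 lower by at least 2-fold, and extend to the highest levels.

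**Figure D2:**
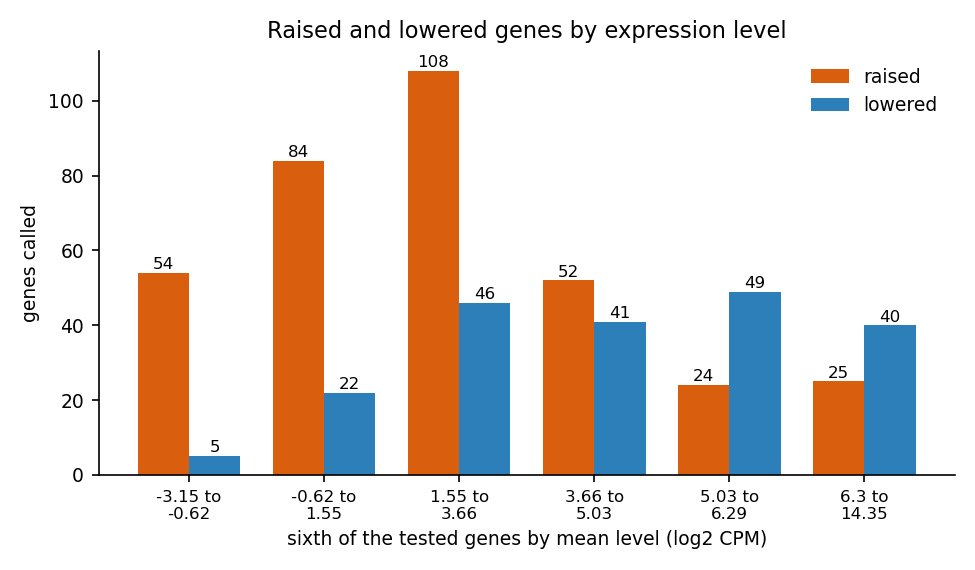
Number of raised (orange) and lowered (blue) genes in 6 equal classes of the tested genes by mean level, with the range of each class in log2 CPM on the horizontal axis. Rises outnumber falls in the 4 lower classes and falls outnumber rises in the 2 upper ones.

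Single libraries moved both counts, with 242 to 436 raised and 105 to 256 lowered genes over the omissions of 1 library. Leaving out treated knockout 3 lowered the count of changed genes from 550 to 347, with 242 raised, and leaving out saline knockout 4 gave 436 raised and 253 lowered. The count of lowered genes went from 203 to 114, 105 and 120 without treated knockout 2, 3 and 4, and to 111, 125 and 120 without saline knockout 1, 2 and 3. When the Ttr-high libraries were left out, 215 genes were called, 179 raised and 36 lowered, and 199 of these were among the 550. Of the 550 genes 291 were called under each of the 12 omissions of a single library, 220 raised and 71 lowered.

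Of 26 tested members of the interferon signalling list 8 rose, 0 fell and 18 did not pass (median 0.25), and of 21 nucleic acid sensors and adaptors 10 rose, 0 fell and 11 did not pass (median 0.63), where 1.81% of all tested genes rose. Irf7, the transcription factor that amplifies type I interferon production, was at 74.5, 85.8, 97.3 and 68.8 CPM in treated knockout 1 to 4 and at 2.66, 4.23, 3.69 and 3.71 CPM in saline knockout 1 to 4. Every treated library was far above every saline library, and the log2 fold change was 4.51 (SE 0.303, edgeR, adjusted p = 1.14e-05). Irf9, a DNA-binding subunit of the complex on the ISRE, rose by 1.27 (SE 0.173) and Stat2 by 0.37 (SE 0.0765). Irf1 rose by 1.05 (SE 0.178), Nlrc5, the activator of class I antigen presentation genes, by 3.96 (SE 0.219), and Usp18, which removes ISG15 and dampens the interferon receptor, by 3.47 (SE 0.305). The receptor chains themselves did not pass: Ifnar1 was at 60.5 ± 2.24 CPM in the treated and 66.5 ± 2.5 CPM in the saline knockout (SD, n = 4), and Ifnar2 at 5.96 ± 0.553 against 4.70 ± 0.451 CPM (edgeR, adjusted p = 0.273 and 0.340). After omission of the Ttr-high libraries, 5 members of the signalling list and 10 sensors were called, and Stat2 (adjusted p = 0.181) and Irf1 (0.0764) were not among them.

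Among the sensors, Ifih1, which encodes MDA5, was at 21.9, 28.4, 29.7 and 17.4 CPM in treated knockout 1 to 4 and at 1.96, 3.68, 2.05 and 3.58 CPM in saline knockout 1 to 4. Every treated value exceeded every saline value, with treated knockout 1 and 4 the lower pair, and the log2 fold change was 3.11 (SE 0.225, edgeR, adjusted p = 3.17e-07). Ddx58, which encodes RIG-I, rose from 7.11 ± 1.44 to 32.5 ± 4.49 CPM (SD, n = 4), and Dhx58, their regulator LGP2, from 3.43 ± 0.327 to 10.6 ± 2.09 CPM. The endosomal sensor Tlr3 rose less, from 12.4 ± 1.73 to 19.3 ± 2.93 CPM (log2 0.63, SE 0.119). Zbp1, a sensor of left-handed nucleic acid, rose by 4.78 (SE 0.436) from 0.537 ± 0.252 CPM, and Eif2ak2, the kinase PKR that stops translation on double-stranded RNA, by 1.53 (SE 0.168). Mavs, the adaptor that RIG-I and MDA5 share, was at 10.1 ± 1.05 CPM in the treated and 10.6 ± 0.829 CPM in the saline knockout and did not pass (edgeR, adjusted p = 0.820).

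The antiviral effectors gave the largest count. Of 49 tested members 41 rose and 8 did not pass, all 49 fold changes were positive, and the median was 2.26. Isg15, a ubiquitin-like protein joined to other proteins during infection, was at 36.0, 38.2, 41.2 and 30.6 CPM in treated knockout 1 to 4 and at 1.54, 2.90, 1.97 and 2.81 CPM in saline knockout 1 to 4. The groups were far apart (log2 3.97, SE 0.223, edgeR, adjusted p = 2.76e-08). All 6 tested genes of ISG15 conjugation rose (median 2.47), among them Uba7, its activating enzyme (2.5, SE 0.170). Ifit1, which binds viral RNA ends, was at 49.4, 59.8, 52.2 and 47.5 CPM against 2.37, 5.57, 2.79 and 3.46 CPM, and rose by 3.88 (SE 0.2). Its relatives Ifit2 and Ifit3 rose by 3.42 (SE 0.141) and 3.15 (SE 0.216). Rsad2, which encodes viperin, an enzyme that makes a chain-terminating nucleotide, was at 27.1, 19.6, 23 and 31.4 CPM against 1.51, 1.16, 1.26 and 0.865 CPM (log2 4.41, SE 0.203). The highest treated libraries for Rsad2 were 1 and 4, the reverse of Ifih1.

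Genes of the oligoadenylate synthetase family, which are activated by double-stranded RNA, rose in the same way. Oas1a rose from 1.38 ± 0.411 to 15.9 ± 2.35 CPM, Oas2 from 1.15 ± 0.242 to 11.1 ± 3.45 CPM and Oasl2 from 4.55 ± 0.687 to 54.8 ± 8.34 CPM (SD, n = 4). Oasl1 rose by 5.30 (SE 0.239) from 0.345 ± 0.110 CPM, and Mx1, a GTPase that traps viral particles, by 5.57 (SE 0.317) from 0.244 ± 0.0655 CPM. Among called genes averaging 1 log2 CPM or more, without overlap and with predicted and unnamed ones left aside, Ifi44 had the largest rise, from 1.3, 1.97, 1.08 and 2.81 CPM in saline knockout 1 to 4 to 52.9, 61.1, 50.2 and 37.3 CPM in treated knockout 1 to 4 (log2 4.79, SE 0.287, edgeR, adjusted p = 9.76e-07). Trim30a rose by 3.13 (SE 0.142), Sp100, a nuclear body protein, by 2.11 (SE 0.119), and Bst2, which tethers budding viruses, by 3.03 (SE 0.505). Bst2 varied between 23.4 and 54.4 CPM in the treated and 2.05 and 9.68 CPM in the saline knockout, and its call was lost when only the 8 knockout libraries were fitted (adjusted p = 0.0595). After omission of the Ttr-high libraries, 38 of 49 effectors were called and the median was 2.28. Many of these genes have near-identical neighbours (Oas, Ifit, Gbp, Iigp and Tgtp families, class I genes), and how reads with several matches were counted is not stated, so the split of counts between copies is uncertain.

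Promoter sequence was read for the genes with the largest changes, to show where the letters of the ISRE core lie. The stretches below are the 120 bases upstream of the annotated start in RefSeq (GRCm38.p6), 5′ to 3′ on the gene's strand, and capitals mark matches to GAAANNGAAA or its reverse TTTCNNTTTC. The first 5 are genes with a large rise and a match, followed by Lcn2, which rose by 4.26 without a match, and by Slc22a8, among the largest falls.
Isg15 (chr4:156200819-156200938, minus strand): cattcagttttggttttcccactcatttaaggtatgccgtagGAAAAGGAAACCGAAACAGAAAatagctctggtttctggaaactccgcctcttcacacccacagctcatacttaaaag
Ifit1 (chr19:34640769-34640888, plus strand): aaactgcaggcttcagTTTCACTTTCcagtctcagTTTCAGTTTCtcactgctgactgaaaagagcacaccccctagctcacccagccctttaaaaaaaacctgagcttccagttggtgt
Oas1a (chr5:120907526-120907645, minus strand): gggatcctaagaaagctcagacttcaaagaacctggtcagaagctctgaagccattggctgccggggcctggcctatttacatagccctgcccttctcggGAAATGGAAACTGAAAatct
Gbp2 (chr3:142620543-142620662, plus strand): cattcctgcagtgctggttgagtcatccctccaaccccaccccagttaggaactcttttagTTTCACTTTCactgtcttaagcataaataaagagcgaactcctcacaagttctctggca
Rsad2 (chr12:26456453-26456572, minus strand): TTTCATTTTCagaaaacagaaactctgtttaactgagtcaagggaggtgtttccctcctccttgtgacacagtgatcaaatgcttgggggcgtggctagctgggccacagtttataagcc
Lcn2 (chr2:32387740-32387859, minus strand): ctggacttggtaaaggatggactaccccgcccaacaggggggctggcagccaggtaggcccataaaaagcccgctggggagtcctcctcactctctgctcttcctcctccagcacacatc
Slc22a8 (chr19:8593062-8593181, plus strand): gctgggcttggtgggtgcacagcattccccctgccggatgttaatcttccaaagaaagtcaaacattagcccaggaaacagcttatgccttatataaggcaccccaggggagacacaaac
The matches of Isg15 overlap one another and begin 78, 72 and 66 bases before the start, those of Ifit1 begin at 104 and 85 bases, and those of Oas1a at 20 and 14 bases.

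A promoter sequence was found for 12793 of the 19166 tested genes (66.7%), for 257 of the 347 raised genes and for 146 of the 203 lowered genes. Since fewer than 80% had an entry, a check over the whole sets is void, and the shares describe the promoters in hand only. In the 250 bases upstream, GAAANNGAAA on either strand was present for 407 of 12793 genes (3.18%), for 52 of 257 raised genes (20.2%) and for 3 of 146 lowered genes (2.05%). The share was 46.6% (41 of 88) among genes raised at least 4-fold, 5.80% (4 of 69) among those raised 2-fold to under 4-fold and 7.00% (7 of 100) among those raised less. The GAS core TTCNNNGAA, which reads the same on both strands, was present for 7.25% of all (927 genes), 12.5% of raised (32 genes) and 6.85% of lowered genes (10 genes). Irf7, Ifi44, Oasl2, Ifit2 and Ifi47 rose by 3.26 to 4.79 on the log2 scale without a match to the ISRE core in these windows. A match is a description of letters and not of binding.

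**Figure D3:**
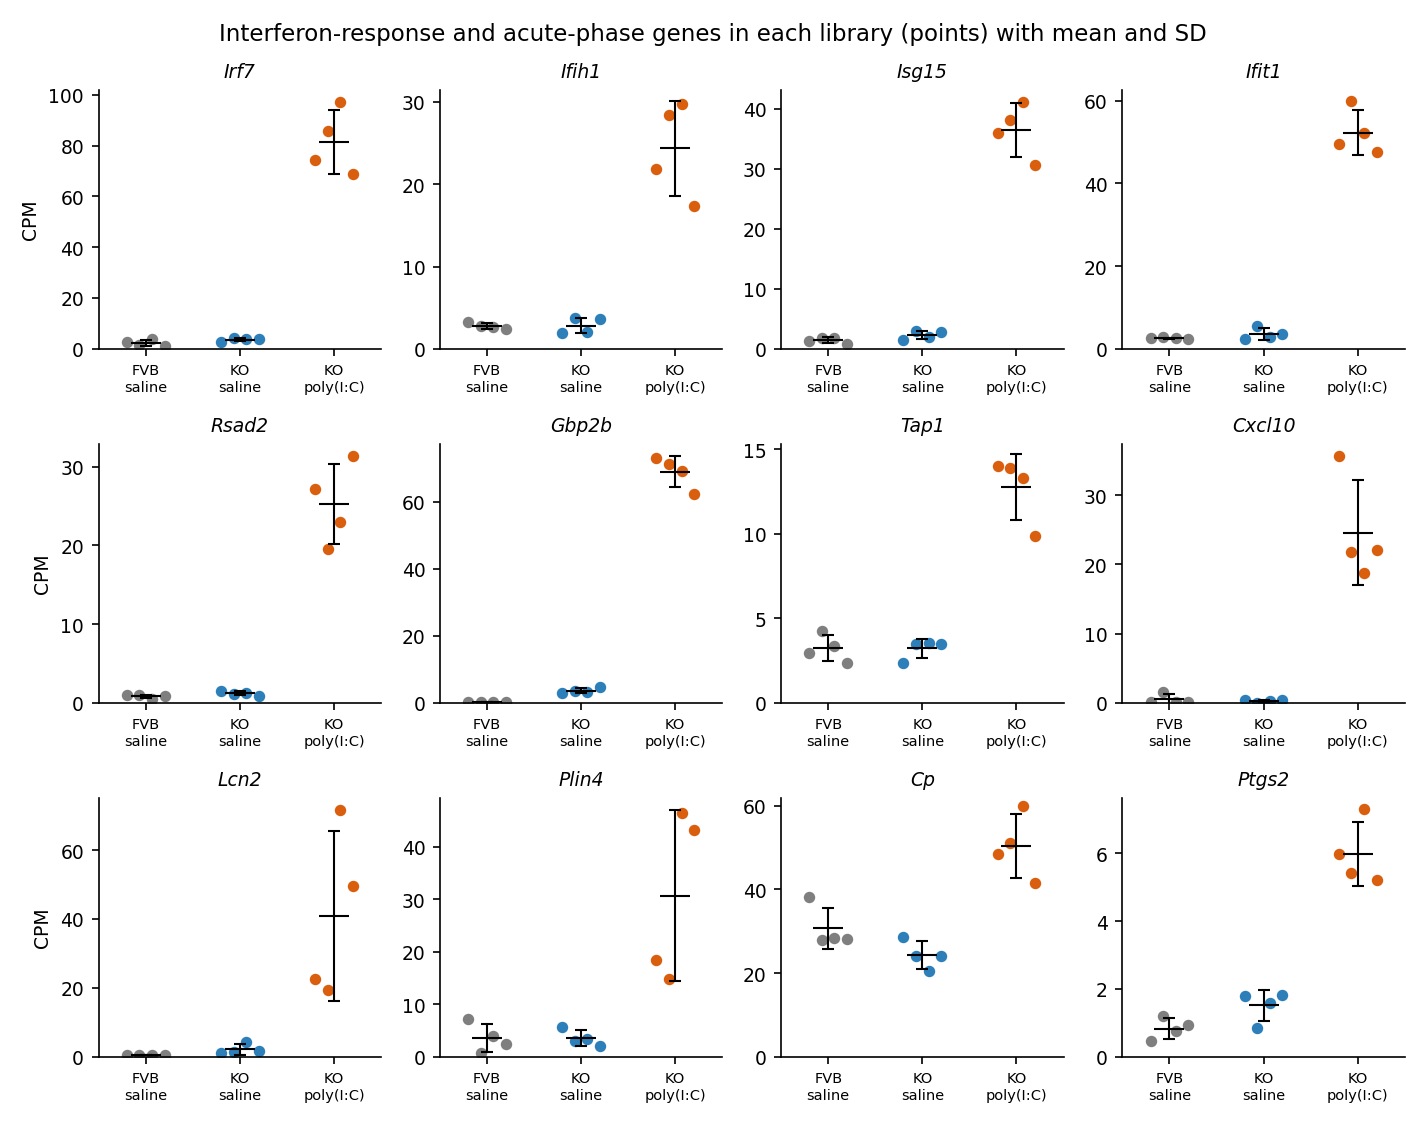
CPM in each library (points; FVB saline grey, Fmr1 knockout saline blue, Fmr1 knockout poly(I:C) orange) with the mean and SD of 4 libraries, for 12 raised genes, each panel on its own linear axis from 0. The treated libraries lie above all saline knockout libraries in every panel. Lcn2 and Plin4 are higher in treated knockout 3 and 4 than in 1 and 2.

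The interferon-induced GTPases, which attack the membranes of intracellular microbes, rose almost without exception. Of 20 tested members 19 rose and Gbp11 did not pass (median 3.09). Gbp2b was at 73.1, 71.3, 69.1 and 62.4 CPM in treated knockout 1 to 4 and at 2.87, 3.48, 3.20 and 4.60 CPM in saline knockout 1 to 4. Its treated libraries differed little from one another, the log2 fold change was 4.28 (SE 0.142, edgeR, adjusted p = 3.3e-12), and FVB held 0.258 ± 0.107 CPM (SD, n = 4). Gbp2 was at 52.3, 52.7, 51.8 and 47.6 CPM against 3.55, 4.51, 3.90 and 6.27 CPM (log2 3.48, SE 0.220). Gbp3 rose by 3.20 (SE 0.242), Gbp9 by 2.64 (SE 0.112), Iigp1 by 3.69 (SE 0.174), Ifi47 by 3.26 (SE 0.232) and Tgtp2 by 3.14 (SE 0.362). Iigp1 was higher in treated knockout 1 and 2 (38.4 and 40.8 CPM) than in 3 and 4 (27.5 and 24.2 CPM), and the saline libraries lay between 2.11 and 3.02 CPM. Of 10 genes of ADP-ribosylation 6 rose (median 1.10), among them the macrodomain proteins Parp14 (2.44, SE 0.139) and Parp9 (2.06, SE 0.126). In the fit without Ttr-high libraries, 17 of 20 GTPases and 6 of 10 ADP-ribosylation genes were called.

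Antigen presentation rose for class I and did not pass for class II. Of 21 class I genes 13 rose and 8 did not pass (median 0.75), while 0 of 9 class II genes passed in either direction (median −0.13, edgeR, with 0 by DESeq2 or limma-voom and 0 of them at an unadjusted p under 0.05). Tap1, the peptide pump subunit that feeds class I molecules, was at 14, 13.9, 13.3 and 9.89 CPM in treated knockout 1 to 4 and at 2.37, 3.45, 3.54 and 3.50 CPM in saline knockout 1 to 4. Both groups had a single low library, and they did not overlap (log2 1.99, SE 0.182, edgeR, adjusted p = 7.1e-07). Tap2 rose by 1.32 (SE 0.152), the immunoproteasome subunit Psmb9 by 1.80 (SE 0.230) and the class I heavy chain H2-Q4 by 1.95 (SE 0.206). B2m, the light chain, was at 147, 178, 175 and 118 CPM against 79.0, 79.8, 76.6 and 116 CPM. Treated knockout 4 and saline knockout 4 lay nearly at the same level, and the rise of 0.81 (SE 0.150, adjusted p = 0.0118) was lost with only the 8 knockout libraries (0.0706), with the replicate number as a block (0.0574) and without the Ttr-high libraries (0.251). In that last fit 9 of 22 class I genes were called.

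Several chemokines rose from near 0, whereas most cytokine genes stayed too low to test. Of 19 tested chemokines 9 rose and 10 did not pass (median 0.72). Cxcl10, a chemokine that draws activated T cells, was at 35.7, 21.8, 18.8 and 22.1 CPM in treated knockout 1 to 4 and at 0.417, 0, 0.256 and 0.413 CPM in saline knockout 1 to 4. Treated knockout 1 was the highest, and the groups were far apart (log2 6.46, SE 0.868, edgeR, adjusted p = 0.00331). Its relatives on the same receptor, Cxcl9 and Cxcl11, stood at 14.4 ± 4.51 against 0.0357 ± 0.0245 CPM and at 20.6 ± 3.59 against 0.428 ± 0.188 CPM (SD, n = 4), and both rose. Ccl2 and Ccl12, which draw monocytes, rose by 4.30 (SE 0.632) and 2.67 (SE 0.385), and Ccl5 by 3.69 (SE 0.655). Tnfsf10, the death ligand TRAIL, was the only called member of the list of interferon genes and cytokines, from 4.92 ± 0.674 to 16.2 ± 3.59 CPM, and 15 of its 25 members were too low to test. Ifnb1 had 2 counts in all, both in treated knockout 4, and Ifna4, Ifnl2 and Ifnl3 had 0 counts in all 12 libraries. Il6 had 2, 0, 4 and 2 counts in treated knockout 1 to 4 and 0 in the saline knockout, and Tnf had 24 counts over the treated and 6 over the saline group. Il1b had 18, 48, 39 and 6 counts in treated knockout 1 to 4 and 17, 4, 0 and 147 in saline knockout 1 to 4, most of the saline counts lying in a single library. At this depth, 3 counts over a group, the most that a count of 0 allows, correspond to 0.0159 CPM in the treated and 0.0179 CPM in the saline knockout, for counting error only. The call of Cxcl9 was lost without saline knockout 1 or 3 (adjusted p = 0.0545 and 0.0547). With the Ttr-high libraries left out, 3 chemokines were called, and Cxcl9 (0.276), Cxcl10 (0.0602) and Ccl5 (0.124) were not, with fewer samples in each group. With log2 Ttr as a covariate and all libraries kept, 8 chemokines rose. With at least 10 counts required in 8 libraries 5 chemokines were called, since fewer were tested.

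IL-17A is the cytokine that the series title names. Il17a had 0 counts in all 12 libraries. The shared receptor chain Il17ra was at 16.5, 14.9, 18.3 and 15.3 CPM in treated knockout 1 to 4 and at 14.8, 11.5, 11.4 and 11.6 CPM in saline knockout 1 to 4. All treated libraries lay above the saline ones, treated knockout 2 barely above saline knockout 1, and the difference of 0.40 (SE 0.114) missed the threshold (edgeR, adjusted p = 0.0656), while it passed without saline knockout 1 (0.0263), with the replicate number as a block (0.0486), without the low-count filter (0.0335) and by DESeq2 (0.0168). Its partner Il17rc was at 4.17 ± 0.684 against 3.69 ± 0.576 CPM (SD, n = 4) and did not pass (adjusted p = 0.694). Il17rd, an inhibitory relative of these receptors, fell from 4.81 ± 0.995 to 2.95 ± 0.561 CPM (log2 −0.70, SE 0.182, adjusted p = 0.043). That call was lost without FVB 3 or 4, any treated library, or saline knockout 1, 2 or 3 (adjusted p = 0.0555 to 0.139), by limma-voom (0.0538), with only the 8 knockout libraries (0.0783) and without the Ttr-high libraries (0.208). Of the 10 tested genes of IL-17 signalling 0 rose and 1 fell, where 1.81% and 1.06% of all tested genes did.

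Acute-phase genes, which tissues make under the influence of interleukin-6 and related cytokines, rose with more spread between libraries. Of 16 tested members 8 rose and 8 did not pass (median 1.23). Lcn2, an iron-chelator-binding protein of the acute phase, was at 22.6, 19.4, 71.7 and 49.5 CPM in treated knockout 1 to 4 and at 0.991, 1.44, 4.38 and 1.71 CPM in saline knockout 1 to 4. The groups did not overlap, and treated knockout 3 and 4 held the higher values (log2 4.26, SE 0.573, edgeR, adjusted p = 0.00331). Cp, the copper ferroxidase ceruloplasmin, was at 48.5, 51.2, 60.0 and 41.6 CPM against 28.7, 24, 20.4 and 24 CPM (log2 1.05, SE 0.128). Serpina3f rose by 4.49 (SE 0.596), Saa3 by 3.03 (SE 0.559), Cebpd by 1.28 (SE 0.242), Timp1, an inhibitor of matrix proteases, by 1.61 (SE 0.325), and Ch25h, which makes 25-hydroxycholesterol, by 1.89 (SE 0.381). Of 22 tested cytokine receptors 2 rose and 1, Csf1r, fell, where 1.81% and 1.06% of all tested genes did. Without saline knockout 4, 5 rose. The 2 raised with all libraries were Osmr, the oncostatin M receptor (1.24, SE 0.158), and Il6ra, the interleukin-6 receptor (0.95, SE 0.153). Socs3, the feedback inhibitor of that pathway, was at 3.77, 3.53, 2.95 and 1.08 CPM against 1.04, 1.06, 1.15 and 1.77 CPM. Treated knockout 4 lay among the saline libraries, and Socs3 did not pass (adjusted p = 0.0599, but 0.00233 without treated knockout 4, 0.0354 without saline knockout 4, 0.00382 without the low-count filter and 0.0151 by DESeq2). When the Ttr-high libraries were left out, 3 acute-phase genes were called, and Saa3 (0.358), Cebpd (0.126), Timp1 (0.429) and Ch25h (0.260) were not. With log2 Ttr as a covariate and all libraries kept, 8 acute-phase genes rose.

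Of 24 tested genes that respond to glucocorticoids, metallothioneins included, 2 rose, Plin4 and Map3k6, 0 fell and 22 did not pass (median 0.47). The share of all tested genes was 1.81% raised and 1.06% lowered. Plin4, a lipid droplet protein, was at 18.4, 14.9, 46.4 and 43.1 CPM in treated knockout 1 to 4 and at 5.60, 3.00, 3.36 and 2.08 CPM in saline knockout 1 to 4. Map3k6, a stress kinase, was at 5.79, 4.76, 19.8 and 13.7 CPM against 2.22, 1.54, 1.82 and 1.41 CPM. Both were highest in treated knockout 3 and 4, a split that was not tested, and their log2 fold changes were 3.14 (SE 0.656, edgeR, adjusted p = 0.038) and 2.66 (SE 0.578, 0.0414). Fkbp5, a co-chaperone of the steroid receptor, was also highest in treated knockout 3 and 4 and did not pass, at 27.3, 20.2, 60.7 and 55.3 CPM against 23.2, 10.7, 13.8 and 13.3 CPM (adjusted p = 0.179, and 0.0398 by DESeq2). The calls of Plin4 and Map3k6 were lost without FVB 3 or 4, treated knockout 3 or 4, or any saline library (adjusted p = 0.0563 to 0.113 and 0.0572 to 0.117), by limma-voom (0.0597 and 0.102), with the block (0.0582 and 0.0515), with log2 Ttr as a covariate (0.0598 and 0.0665) and without the Ttr-high libraries (0.357 and 0.212), and that of Map3k6 also without the low-count filter (0.0612). The list had 4 called members without FVB 1, 5 with only the 8 knockout libraries and 6 by DESeq2.

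Smaller groups of stress genes also held rises, to be set beside 1.81% raised over all tested genes. Ptgs2, the inducible cyclooxygenase of prostaglandin synthesis, was at 5.97, 5.42, 7.30 and 5.21 CPM in treated knockout 1 to 4 and at 1.80, 0.857, 1.59 and 1.83 CPM in saline knockout 1 to 4 (log2 1.97, SE 0.256, edgeR, adjusted p = 6.42e-05). With Pla2g4a, the phospholipase that releases its substrate (0.64, SE 0.133), it made up the 2 rises among 18 genes of prostaglandin synthesis and transport. Of 21 heat shock and unfolded protein genes 3 rose, among them the chaperones Hspa1a (1.73, SE 0.232) and Hspb1 (1.48, SE 0.267), and 5 did so without saline knockout 4. Of 19 genes of inflammasomes and lytic cell death 4 rose, among them Casp4, the sensor of intracellular lipopolysaccharide (2.93, SE 0.355), and Mlkl, the pore former of necroptosis (3.36, SE 0.305). Both had non-overlapping groups, at 1.90 ± 0.214 against 0.242 ± 0.0920 CPM and 3.65 ± 1.11 against 0.354 ± 0.0376 CPM (SD, n = 4). After omission of the Ttr-high libraries, 1 prostaglandin gene and 1 heat shock gene were called, and Pla2g4a (0.338) and Hspb1 (0.169) were not.

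Genes of blood vessels moved in both directions. Of 22 markers of endothelial cells, the lining of blood vessels, 4 rose and 5 fell, where 1.81% and 1.06% of all tested genes did, and their median was −0.09. The summed level of the 22 markers was 680 to 734 CPM in the treated and 709 to 858 CPM in the saline knockout, and none was at 0. The markers that rose were Ly6c1, Mfsd2a, Pglyrp1 and Ramp2, and those that fell were Tie1, Tek, Itm2a, Abcb1a and Slco1a4. In bulk tissue, fewer cells of a type and less RNA per cell cannot be told apart. Tie1, a receptor of the angiopoietin system that keeps vessels stable, was at 5.00, 5.98, 4.61 and 4.95 CPM in treated knockout 1 to 4 and at 10.7, 10.7, 9.97 and 10.1 CPM in saline knockout 1 to 4. The groups were well apart, with little spread in either (log2 −1.01, SE 0.124, edgeR, adjusted p = 3.36e-05). Its partner Tek, which encodes the angiopoietin receptor TIE2, was at 12.0, 10.6, 7.61 and 10.1 CPM against 23.5, 19.9, 17.6 and 18.4 CPM (log2 −0.97, SE 0.124). Ptprb, the phosphatase that acts on TIE2, fell by 0.99 (SE 0.0925), from 52.3 ± 6.66 to 26.2 ± 2.87 CPM (SD, n = 4). Angpt2, the ligand that antagonises TIE2, rose from 4.13 ± 0.801 to 9.01 ± 3.69 CPM (log2 1.12, SE 0.244, adjusted p = 0.0184). The call of Angpt2 was lost without saline knockout 2 or 3 (0.0582 and 0.0621), with the block (0.0750) and without the Ttr-high libraries (0.138). Itm2a, a membrane protein of brain endothelium, was at 52.7, 44.2, 29.7 and 32.4 CPM against 91.0, 79.5, 76.6 and 81.1 CPM (log2 −1.04, SE 0.145).

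Of 17 tested genes of endothelial activation 9 rose, 1 fell and 7 did not pass (median 0.58). Icam1, an adhesion molecule for leukocytes, was at 6.38, 6.21, 7.93 and 4.62 CPM in treated knockout 1 to 4 and at 2.09, 1.71, 2.38 and 2.16 CPM in saline knockout 1 to 4 (log2 1.59, SE 0.278, edgeR, adjusted p = 0.00295). Selp, which encodes P-selectin, was at 0.656, 0.750, 1.18 and 0.434 CPM against 0.0261, 0, 0.154 and 0.0983 CPM (log2 3.36, SE 0.624), and Lrg1 rose by 2.66 (SE 0.563). Sele, the E-selectin gene, was too low to test by the filter. It had 90, 50, 31 and 4 counts in treated knockout 1 to 4 and 0 in every saline knockout library, at least 51.7-fold higher against a floor of 3 counts over the saline group. Vwf, the clotting factor carrier stored in endothelium, was the member that fell, from 46.8, 24.4, 28.6 and 25 CPM in saline knockout 1 to 4 to 15.6, 13.4, 17.1 and 12.1 CPM in treated knockout 1 to 4 (log2 −1.10, SE 0.208, adjusted p = 0.0134). Among the largest rises in abundance were Ly6a, an interferon-inducible surface protein of brain endothelium, at 88.8, 92.1, 90.7 and 56.2 CPM against 15, 12.8, 12.8 and 9.04 CPM (log2 2.73, SE 0.172), and Ly6c1, at 98.3 ± 11.4 against 44.5 ± 8.78 CPM (SD, n = 4). Xdh, the xanthine oxidoreductase gene, rose from 10.0 ± 2.77 to 71.7 ± 8.96 CPM (log2 2.84, SE 0.269). The call of Vwf was lost without treated knockout 2 (0.0549). Without treated knockout 3, 5 of the 17 activation genes were called, and without the Ttr-high libraries 0 were raised and 0 lowered, with Icam1 at an adjusted p of 0.164, Selp at 0.212, Lrg1 at 0.113 and Vwf at 0.0849. In that smaller fit 4 endothelial markers still rose and 5 fell. With log2 Ttr as a covariate and all libraries kept, 9 activation genes rose and 1 fell.

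**Figure D4:**
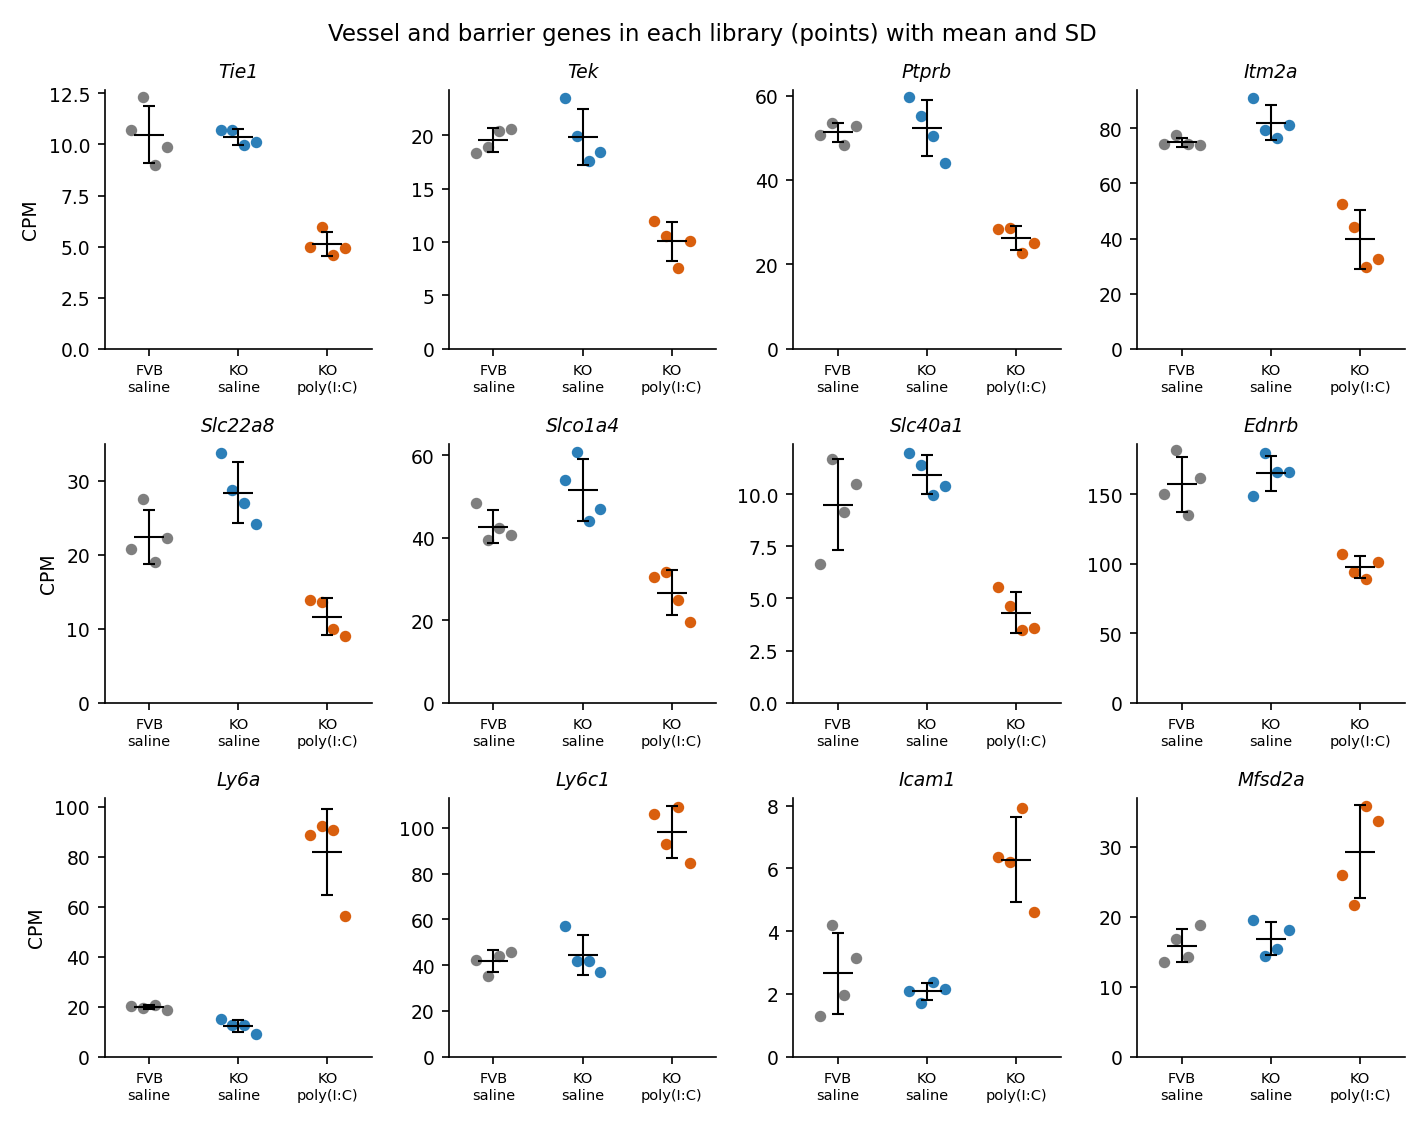
CPM in each library (points; FVB saline grey, Fmr1 knockout saline blue, Fmr1 knockout poly(I:C) orange) with the mean and SD of 4 libraries, for 12 vessel, barrier and endothelin genes, each panel on its own linear axis from 0. The treated libraries lie below all saline knockout libraries for the first 8 genes and above them for Ly6a, Ly6c1, Icam1 and Mfsd2a.

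Transporters of the brain barriers were mostly lower. Of 25 tested members 9 fell, 1 rose and 15 did not pass, 22 fold changes were negative and the median was −0.38. The summed level of the list was 1050 to 1130 CPM in the treated, 1230 to 1370 CPM in the saline knockout and 1200 to 1300 CPM in FVB. Slc22a8, the organic anion transporter OAT3, was at 13.9, 13.6, 9.95 and 9.07 CPM in treated knockout 1 to 4 and at 33.8, 28.7, 27.0 and 24.1 CPM in saline knockout 1 to 4. Every treated library held less than every saline library (log2 −1.29, SE 0.152, edgeR, adjusted p = 6.2e-05). Slc40a1, which encodes the iron exporter ferroportin, was at 5.56, 4.65, 3.50 and 3.60 CPM against 12.0, 11.4, 9.97 and 10.4 CPM (log2 −1.33, SE 0.173). Slco1a4, an efflux carrier for organic anions, was at 30.4, 31.8, 25 and 19.7 CPM against 54.1, 60.8, 44.0 and 47.0 CPM (log2 −0.95, SE 0.139). Slco1c1, the thyroxine transporter, fell by 0.74 (SE 0.144), Slc16a1, the lactate carrier, by 0.53 (SE 0.0813), Slc6a6, the taurine transporter, by 0.42 (SE 0.0615), Slc30a1, a zinc exporter, by 0.47 (SE 0.0928), and Slc22a6, a relative of Slc22a8, by 0.68 (SE 0.151). Mfsd2a, the carrier of docosahexaenoic acid that limits vesicle traffic across endothelium, was the member that rose, from 16.9 ± 2.36 to 29.3 ± 6.64 CPM (SD, n = 4; log2 0.80, SE 0.154). Of 20 iron handling genes Cp and Lcn2 rose and Slc40a1 fell, and 17 did not pass, where 1.81% of all tested genes rose and 1.06% fell. Of 14 markers of mural cells, the pericytes and smooth muscle around vessels, all 14 fold changes were negative (median −0.34), and 1, Atp13a5, fell (−0.81, SE 0.135), with 2 falls without FVB 2, treated knockout 1 or 2, or saline knockout 4. The mean of the mural list was 2.92 to 3.14 log2 CPM in the treated and 3.21 to 3.55 in the saline knockout, without overlap (exact permutation test, two-sided, p = 0.0286, the smallest that 4 against 4 allows, adjusted p = 0.150 over 21 library measures). The part of mural cell content in the falls of vessel genes was not tested. The call of Slc22a6 was lost without treated knockout 3 or 4 or saline knockout 1 (0.0601 to 0.0666), and that of Slco1c1 without the low-count filter (0.0590). After omission of the Ttr-high libraries, 5 transporters fell and 1 rose, and Slc16a1 (0.0569), Slc30a1 (0.263), Slc22a6 (0.151) and Atp13a5 (0.101) did not pass.

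**Figure D5:**
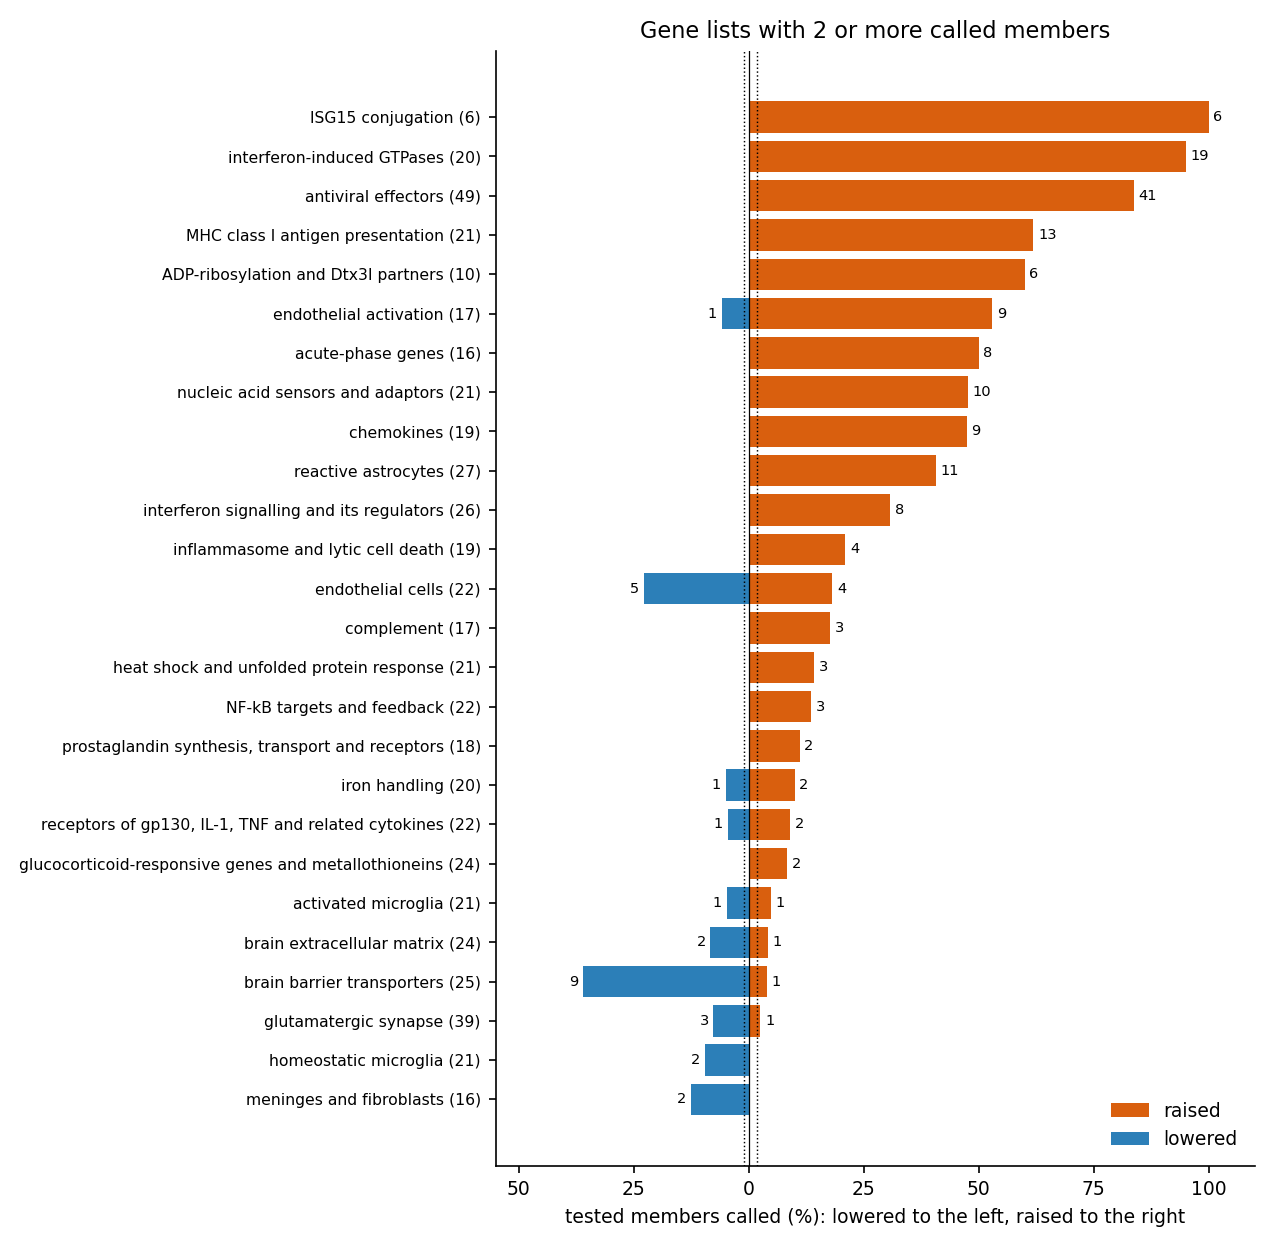
Share of tested members that rose (to the right, orange) or fell (to the left, blue) in each gene list with 2 or more called members, with the number called at the bar and the number tested in brackets. Dotted lines mark 1.81% raised and 1.06% lowered over all tested genes, and the bars of the interferon-related lists extend far beyond them while those of barrier transporters point to the left.

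Markers of microglia, the macrophages of the brain, held few calls by number. Of 21 markers of homeostatic microglia 0 rose and 2 fell (median −0.18), and of 21 genes of activated microglia 1 rose and 1 fell (median 0.03). Since 1.81% of all tested genes rose and 1.06% fell, the lowered shares of both lists lay above that of all genes. P2ry12, the nucleotide receptor of surveying microglia, was at 10.3, 9.25, 8.11 and 7.49 CPM in treated knockout 1 to 4 and at 12.6, 13.2, 11.2 and 16.9 CPM in saline knockout 1 to 4. The groups did not overlap (log2 −0.62, SE 0.137, edgeR, adjusted p = 0.0165), and saline knockout 4 was the highest. Csf1r, the receptor on which microglia depend, fell by 0.41 (SE 0.103, adjusted p = 0.0372) with overlapping groups. Tspo, a mitochondrial protein used as an imaging target of glial activation, rose from 3.22 ± 0.873 to 7.93 ± 2.12 CPM (SD, n = 4; log2 1.3, SE 0.219). The call of P2ry12 was lost without treated knockout 3 or 4 or saline knockout 4 (0.0503 to 0.0721), that of Csf1r without FVB 3, treated knockout 2 or 4, or saline knockout 1, 3 or 4 (0.0536 to 0.130), with the block (0.0631), without robust estimation (0.0519), with log2 Ttr as a covariate (0.0517) and with only the 8 knockout libraries (0.0505), and without the Ttr-high libraries they stood at 0.281 and 0.0820. Of 17 complement genes 3 rose, against 1.81% of all tested genes. Among them were C1qb (0.72, SE 0.156, adjusted p = 0.0148) and C1ra (1.84, SE 0.366, adjusted p = 0.0103). The call of C1qb was lost without saline knockout 1, 2 or 3 (0.0502 to 0.0588), the complement count fell to 1 without saline knockout 2 or 3, and without the Ttr-high libraries it was 0, with C1qb at 0.325 and C1ra at 0.0626, the latter also at 0.0622 with only the 8 knockout libraries. With log2 Ttr as a covariate and all libraries kept, 2 complement genes rose. The lone fall among activated microglia, Cd9, was lost in each omission of a knockout library.

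Over all tested genes 1.81% rose and 1.06% fell, the shares to set beside the astrocyte and oligodendrocyte counts that follow. Of 27 genes of reactive astrocytes 11 rose and 16 did not pass (median 1.05), and 7 rose without the Ttr-high libraries. The members that rose were Lcn2, Osmr, Timp1, Cxcl10, Hspb1, Cp, Aspg, H2-T23, Gbp2, Psmb8 and Iigp1, most of which also belong to the interferon, antigen presentation or acute-phase lists. Gfap, the intermediate filament that defines reactive astrocytes, was at 208, 131, 235 and 201 CPM in treated knockout 1 to 4 and at 158, 174, 143 and 156 CPM in saline knockout 1 to 4. Treated knockout 2 lay below all saline libraries and the other 3 treated libraries above them, and Gfap did not pass (edgeR, adjusted p = 0.375, but 0.00628 without treated knockout 2 and 0.0429 without the Ttr-high libraries). Of 21 astrocyte and Bergmann glia markers 0 rose and 1 fell, Aqp4, the water channel of astrocyte endfeet, from 466 ± 31.6 to 363 ± 36.4 CPM (SD, n = 4; log2 −0.36, SE 0.0903, adjusted p = 0.0368). That call was lost without treated knockout 2, 3 or 4 or saline knockout 2, 3 or 4 (0.0621 to 0.145), without robust estimation (0.0503) and without the Ttr-high libraries (0.724). Ednrb, the endothelin receptor abundant in astrocytes, was lower in every treated library than in any saline one, at 107, 94.2, 89.1 and 101 CPM against 149, 180, 166 and 166 CPM (log2 −0.75, SE 0.0848, adjusted p = 1.4e-05), and its ligand gene Edn3 fell by 1.07 (SE 0.169, adjusted p = 0.00068, and 0.0916 without the Ttr-high libraries). Among 27 oligodendrocyte genes 1 fell, Opalin, a late marker of myelinating cells, from 12.1, 14.1, 16.2 and 13.8 CPM in saline knockout 1 to 4 to 7.87, 6.38, 3.88 and 5.06 CPM in treated knockout 1 to 4 (log2 −1.27, SE 0.175), while the median of the list was −0.15. Without treated knockout 1, the library with the highest Opalin of its group, 8 members of the list fell, and without FVB 4, treated knockout 2 or saline knockout 2, 2 did. Tnc, the matrix glycoprotein tenascin C, fell by 1.42 (SE 0.287, adjusted p = 0.0295), a call lost without treated knockout 2, 3 or 4 or saline knockout 1, 2 or 3 (0.0511 to 0.0879) and without the Ttr-high libraries (0.330).

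Neuronal gene lists held few calls by number. Of 23 Purkinje cell markers 0 rose and 1 fell (median −0.13, 20 negative), and of 39 genes of the glutamatergic synapse 1 rose and 3 fell (median −0.05). The lowered shares of these 2 lists lay above that of all tested genes, of which 1.81% rose and 1.06% fell. Gria1, an AMPA receptor subunit carried by Bergmann glia and neurons, was at 711, 550, 519 and 553 CPM in treated knockout 1 to 4 and at 822, 715, 812 and 665 CPM in saline knockout 1 to 4, with FVB at 598 ± 33.1 CPM (SD, n = 4). The groups overlapped through treated knockout 1 (log2 −0.37, SE 0.0920, edgeR, adjusted p = 0.0357). Dner, a Notch ligand of Purkinje cells, fell by 0.28 (SE 0.0718, adjusted p = 0.0403). Both calls were lost without treated knockout 2, 3 or 4 and without saline knockout 1 or 3 (0.0745 to 0.146). That of Gria1 was also lost without FVB 1 or 4 or saline knockout 2 (0.0502 to 0.0533), and that of Dner without FVB 3 or 4 or saline knockout 4 (0.0517 to 0.0580). With only the 8 knockout libraries Gria1 (0.0763) and Dner (0.0552) did not pass, and without robust estimation Dner did not (0.0516). In the fit without Ttr-high libraries, they stood at 0.535 and 0.422. No gene was called among 26 genes of the GABAergic synapse, 30 ion channels of cerebellar firing, 33 FMRP-bound transcripts, 30 autism risk genes, 18 granule cell markers, 16 interneuron markers or 21 immediate early genes by edgeR, whose medians ran from −0.06 to 0.04. In these 7 lists 24 of 163 distinct genes had an unadjusted p under 0.05, DESeq2 called 5 and limma-voom 0. Among all 19166 tested genes, 2973 had such a p, DESeq2 called 986 and limma-voom 577.

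The remaining genes among the 15 largest falls were of varied kinds. Tmprss3, a membrane protease, fell from 2.82, 4.28, 2.10 and 4.99 CPM in saline knockout 1 to 4 to 1.84, 0.664, 1.36 and 1.06 CPM in treated knockout 1 to 4 (log2 −1.52, SE 0.303, edgeR, adjusted p = 0.00928), where FVB held 5.82 ± 1.21 CPM (SD, n = 4). Th, which encodes tyrosine hydroxylase, the first enzyme of catecholamine synthesis, fell from 6.39 ± 0.940 to 3.10 ± 0.400 CPM (log2 −1.04, SE 0.170). Megf6 fell by 1.35 (SE 0.194), Col2a1, a cartilage collagen, by 1.32 (SE 0.305) and Fbxl7, a ubiquitin ligase subunit, by 1.15 (SE 0.248). The largest gain in abundance among called genes, predicted and unnamed ones left aside, was that of Syne1, a nuclear envelope protein of Purkinje cells, at 887, 929, 1020 and 815 CPM against 781, 740, 646 and 659 CPM (log2 0.37, SE 0.0871, adjusted p = 0.0253), followed by Apod, a lipid carrier of glia, from 277 ± 13.1 to 417 ± 26.3 CPM (log2 0.59, SE 0.121, adjusted p = 0.015). Htra1, a secreted protease of astrocytes, rose by 0.48 (SE 0.0828). The call of Col2a1 was lost without FVB 3, treated knockout 3 or 4, or saline knockout 3 or 4 (0.0569 to 0.114), without the low-count filter (0.119), with only the 8 knockout libraries (0.0538), with the block (0.0769) and with log2 Ttr as a covariate (0.0571). Single libraries ended the calls of Fbxl7 (saline knockout 1, 0.0580), Syne1 (treated knockout 2 or 3, saline knockout 3 or 4, 0.0575 to 0.103) and Apod (treated knockout 3 or saline knockout 3, 0.0540 and 0.0621). With the Ttr-high libraries left out, Tmprss3 (0.252), Col2a1 (0.119), Syne1 (0.456) and Apod (0.242) did not pass.

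Markers of cells that can enter with blood, and of tissue next to the cerebellar cortex, were also compared. With 4 libraries against 4 the smallest exact p is 0.0286, so a measure could hardly pass adjustment over the 21 library measures. The mean of the brainstem and deep nuclei list was 2.35 to 2.60 log2 CPM in the treated and 2.08 to 2.34 in the saline knockout, higher in the treated group without overlap (exact permutation test, two-sided, p = 0.0286, adjusted p = 0.150). That mean rests on 4 tested members of 12, of which 0 were called by edgeR, DESeq2 or limma-voom (median 0.07). Dbh had the largest fold change, from 0.299 ± 0.128 to 0.72 ± 0.187 CPM (SD, n = 4; log2 1.25, SE 0.401). The other tested members had log2 fold changes of −0.19 to 0.08. Of 16 markers of meninges and fibroblasts 0 rose and 2 fell (median −0.17, 11 negative), where 1.81% and 1.06% of all tested genes did. Those were Slc47a1 (−0.92, SE 0.213) and Islr (−0.51, SE 0.132), calls lost in some omissions of 1 library. Without the Ttr-high libraries 0 fell. The list mean overlapped, at 3.28 to 3.79 against 3.56 to 3.96 log2 CPM (exact permutation test, adjusted p = 0.515). The part of brainstem, deep nuclei and meninges in the results was not tested. The mean of the lymphocyte list was −1.34 to 0.03 log2 CPM in the treated and 0.18 to 1.29 in the saline knockout, and that of the erythrocyte list 2.02 to 2.67 against 2.76 to 4.02, both lower in the treated group without overlap (exact permutation test, two-sided, p = 0.0286, adjusted p = 0.150). Neutrophil markers overlapped, at −0.61 to 0.73 against −0.46 to 1.63 log2 CPM (adjusted p = 0.515). Of 20 lymphocyte markers 6 were tested and 0 called by edgeR, DESeq2 or limma-voom. An unadjusted p under 0.05 by edgeR was found for 3 of them and for 2973 of all 19166 tested genes. The summed level of the lymphocyte markers was 4.38 to 11.2 CPM in the treated and 9.85 to 79.5 CPM in the saline knockout. Of the 6 tested lymphocyte markers 1 had a positive fold change and 5 a negative one (median −0.55). The largest falls among those named by rule were of antibody genes, Igkc (−3.87, SE 1.57) and Jchain (−2.70, SE 1.12), against −0.70 for Cd79a and −0.39 for Ighm. Igkc reached 60.4 CPM in saline knockout 4 and 2.34 to 7.66 CPM in the other saline libraries. Markers of border macrophages and monocytes stood at 1.11 to 1.80 against 1.04 to 1.18 log2 CPM (exact permutation test, adjusted p = 0.399). Of 15 such markers 1 rose, where 1.81% of all tested genes did. It was Plac8, from 0.337 ± 0.188 to 2.41 ± 1.10 CPM (SD, n = 4). The part of these cells in the changes of interferon, chemokine and vessel genes was not tested.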

How the data were processed

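RNA of 12 mouse cerebellum samples was extracted with TRIzol, treated with DNase I and made into TruSeq libraries, per the labels' protocols. Per the submitters' processing notes, the authors used Trim Galore, HISAT2, featureCounts and GRCm39; these sources do not state the strand setting or the treatment of multiply matching reads. The deposited table holds raw counts of 57010 genes, and 52029 gene identifiers were given symbols by an Ensembl-to-symbol reference (99.4% of counts).

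Genes were kept by edgeR's filterByExpr (at least 10 counts, 15 in all), leaving 19166. Counts were scaled by TMM and fitted in all 12 libraries with 3 group means by edgeR's robust quasi-likelihood test (edgeR 4.0.16, R 4.3.3), with Benjamini-Hochberg adjustment over all tested genes and a threshold of 0.05. Library totals were 35155420 to 56390207 counts, the common biological coefficient of variation was 0.152 and 9 residual degrees of freedom remained. CPM are TMM-scaled. In simulated counts for this comparison over 19166 genes, 74% of 100 genes changed 2-fold and 48% of 100 changed 1.5-fold were recovered, and 7.58% of 132 calls were false.

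Group means of single values were compared by exact permutation. Alternatives were other scalings, filters and thresholds, the replicate number as a block, the 8 knockout libraries alone, DESeq2 1.42.0, limma-voom (limma 3.58.1), the omission of each library, and, added later, the omission of 3 libraries high in Ttr (above 1000 CPM) and log2 Ttr as a covariate. Promoters were matched by symbol or unique synonym (162 genes by synonym) to RefSeq sequence of GRCm38.p6, another build than that of the counts, and used for sequence only.

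Genes were named by rule: the knocked-out gene and Il17a with its receptor chains, the 15 called genes that rose most and the 15 that fell most (averaging 1 log2 CPM or more, groups not overlapping), up to 4 members per list by p, and the 10 largest gains and losses in CPM among called genes. Predicted and unnamed genes were left out of the 15 and the 10 largest. Chosen after their values were seen were Stat2, Irf9, Irf1, Tlr3, Eif2ak2, Sp100, Bst2, Gbp3, Tgtp2, Psmb9, Cxcl9, Ccl5, Cebpd, Socs3, Angpt2, Slco1a4, Slco1c1, Slc30a1, Slc22a6, Mfsd2a, Htra1, Fkbp5, Gfap, Ifnar1, Ifnar2, Mavs, Sele, Il1b, Cd9, the genes of the closing section and the members named only to spell out a count. The comparison and all 52 gene lists were chosen with earlier results of these data known. A few members of the lists are counted but not reported here by name.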

Additional observations from a re-analysis of the deposited data

Results flagged for a closer look

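In each group of 4 libraries, a value was listed when its gap to the nearest of the others, divided by the range of the group, exceeded Dixon's 95% critical value for 4 values. Of 304 groups of values 18 were listed, and chance lists about 1 in 20. Saline knockout 4 stood above the other 3 saline libraries for Irf1 (5.17 CPM, others 3.44 to 3.58), B2m (116 CPM, others 76.6 to 79.8), H2-Q4 (7.59 CPM, others 4.41 to 4.87) and Socs3 (1.77 CPM, others 1.04 to 1.15), and below them for Ifit2 (6.07 CPM, others 6.54 to 6.61) and Ccl2 (0.0786 CPM, others 0.101 to 0.104). It also had the largest total of its group, 50.2 M counts against 38.7 to 39.4 M. The high values of Irf1, B2m, H2-Q4 and Socs3 lie on the side of the treated group and narrow its difference, and the cause was not tested.

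Saline knockout 1 stood above the others for Il17ra (14.8 CPM, others 11.4 to 11.6) and below them for Tap1 (2.37 CPM, others 3.45 to 3.54), and saline knockout 2 below them for Mavs (9.37 CPM, others 10.9 to 11.1). Treated knockout 4 stood below the other treated libraries for Tap1 (9.89 CPM, others 13.3 to 14), Ly6a (56.2 CPM, others 88.8 to 92.1) and Rnf213 (53.5 CPM, others 63.8 to 64.4), and treated knockout 3 above them for Ch25h (1.99 CPM, others 1.19 to 1.28). Saline knockout 3 had the smallest share of counts in its 10 most abundant genes (5.24%, others 6.06% to 6.12%), the smallest share of mitochondrial counts (4.20%, others 5.03% to 5.14%) and the lowest mean of border macrophage markers (1.04 log2 CPM, others 1.16 to 1.18). Saline knockout 2 had the highest mean of choroid plexus markers (4.40 log2 CPM, others 0.38 to 0.72).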

How the results depend on the processing

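Of the 131 genes examined singly 120 were called, 102 of them in each omission of a library, 82 without the Ttr-high libraries, 116 with log2 Ttr as a covariate and 114 with the replicate block, and none changed direction under any setting. At an adjusted p under 0.1, 917 genes changed (523 raised, 394 lowered). Under 0.01, 274 changed (211 raised, 63 lowered), and under 0.05 with a log2 fold change of at least 1, 250 changed (220 raised, 30 lowered). DESeq2 called 986 genes (565 raised, 421 lowered), 543 of them among the 550. Leaving out the Ttr-high libraries gave 215 called genes (179 raised, 36 lowered), with fewer samples. Over the omissions of single libraries the count of changed genes ran from 347 to 689, that of raised genes from 242 to 436 and that of lowered genes from 105 to 256. Other scalings, filters, estimations, limma-voom and the fit of knockout libraries alone gave 509 to 783 changed genes. The replicate block gave 563 changed genes (365 raised, 198 lowered). Same-numbered treated and saline libraries deviated with correlations of 0.107, 0.145, −0.099 and −0.069 and did not all correlate best with their own number, so the libraries share a number only. With 100 instead of 250 bases upstream, the ISRE core was present for 14.4% of raised, 0% of lowered and 1.13% of all genes with a promoter, and the GAS core for 5.84%, 1.37% and 2.77%. Depth limits genes near 0.0159 CPM in the treated and 0.0179 CPM in the saline knockout, which correspond to 3 counts over the group.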

Other observations

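Further genes that rose were not described above. Lgals9, which encodes the lectin galectin-9, was at 44.7, 43.2, 44.2 and 39.3 CPM in treated knockout 1 to 4 and at 5.87, 5.85, 6.41 and 7.29 CPM in saline knockout 1 to 4 (log2 2.75, SE 0.139, edgeR, adjusted p = 3.29e-10). Rnf213, a giant ubiquitin ligase studied in moyamoya disease of the brain arteries, rose from 14 ± 1.69 to 61.4 ± 5.27 CPM (SD, n = 4; log2 2.14, SE 0.102). Cd274, the checkpoint ligand PD-L1, rose from 1.60 ± 0.385 to 10.6 ± 1.14 CPM. Smaller genes of the interferon response rose from below 1 CPM: Ifi204, a member of the p200 family of DNA-binding proteins, by 4.20 (SE 0.452), Slfn9 of the schlafen family by 4.17 (SE 0.314), Apol9b by 4.04 (SE 0.483) and Phf11b by 4.29 (SE 0.482). All 4 belong to families with near-identical copies, between which the split of counts is uncertain. Of genes carried by macrophages, Fcgr1, the high-affinity antibody receptor, rose from 2.58 ± 0.142 to 7.26 ± 0.541 CPM, Siglec1 from 0.727 ± 0.204 to 2.91 ± 0.173 CPM and Ms4a4c from 0.128 ± 0.0882 to 1.54 ± 0.515 CPM. Ms4a4c did not pass without the Ttr-high libraries (adjusted p = 0.0626).

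Gkn3, a gene of arterial endothelium in the mouse brain, was at 0.425, 0.643, 0.101 and 0.521 CPM in treated knockout 1 to 4 and at 2.84, 5.29, 6.46 and 5.42 CPM in saline knockout 1 to 4. It was the only gene called lower by at least 8-fold (log2 −3.54, SE 0.417, edgeR, adjusted p = 0.000128), and its level lay under the mean set for the named falls. Genes of cholesterol synthesis and uptake all had negative fold changes, 26 of 26, with a median of −0.18, but 0 were called by edgeR or limma-voom and 3 by DESeq2. An unadjusted p under 0.05 by edgeR was found for 12 of them and for 2973 of all 19166 tested genes. Hmgcs1, an early enzyme of the pathway, was at 139, 110, 96.7 and 111 CPM in treated knockout 1 to 4 and at 149, 159, 140 and 149 CPM in saline knockout 1 to 4, and Sqle at 44.9, 35.3, 30.2 and 34.9 CPM against 46.6, 47.5, 47.4 and 45.4 CPM. Treated knockout 1 lay nearest to the saline libraries for both. Hmgcs1 passed without it (edgeR, adjusted p = 0.00561, against 0.0744 with all libraries), without FVB 1 (0.0243), with only the 8 knockout libraries (0.0452) and by DESeq2 (0.0159), and Sqle passed without treated knockout 1 (0.0267, against 0.156). With the Ttr-high libraries left out, the median was −0.10, and Hmgcs1 and Sqle stood at 0.807 and 0.897. Of 26 genes, 6 had all treated libraries below all saline ones, where 4.82% of all tested genes had.

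Variable segments of immunoglobulin genes, which mark B cells and plasma cells, were found mostly in a single saline library. A total of 12 of them had 20 or more counts over the saline knockout and 0 in all treated libraries, among them Igkv4-72 with 0, 6, 4 and 86 counts and Igkv17-121 with 0, 1, 8 and 79 counts in saline knockout 1 to 4. These counts were not tested.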
